A study of Mus musculus with 7 samples.

Results

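Lymphotoxin, tumour necrosis factor (TNF) and NF-kB feedback genes were followed in fetal liver blood progenitors by RNA sequencing. The set was the 10 genes Ltb, Lta, Tnf, Ltbr, Tnfrsf1a, Tnfrsf1b, Nfkbia, Tnfaip3, Nfkb1 and Rela, chosen by gene symbol, and all 10 were found among the 22680 rows of the deposited table. All 7 libraries were made from fetal liver of C57BL/6 mice, taken 13.5 days post coitum. There were 3 wild-type and 3 Uhrf1-/- libraries of LSK cells, the fraction without lineage markers and with Sca-1 and c-Kit that holds the stem cells and multipotent progenitors, and 1 wild-type library of LK cells, which carry c-Kit without Sca-1. Uhrf1 encodes a protein that brings the maintenance DNA methyltransferase to newly replicated DNA. The sources used here do not say how the Uhrf1-/- fetuses were made, which part of the gene was lost or which fetuses or litters went into each library.

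TNF, lymphotoxin alpha and lymphotoxin beta are related ligands. Lymphotoxin beta anchors lymphotoxin alpha at the cell surface, where the complex binds the receptor encoded by Ltbr, while TNF binds the receptors encoded by Tnfrsf1a and Tnfrsf1b. These receptors release NF-kB, a dimer of DNA-binding subunits such as the products of Nfkb1 and Rela, from inhibitors in the cytoplasm. Nfkbia encodes the best known of these inhibitors and Tnfaip3 a ubiquitin-editing enzyme that shuts off signalling below the receptor, and both are themselves NF-kB targets, so that they act as negative feedback. In blood formation the pathway is known from inflammation, lymphoid organ development and the response of stem cells to infection.

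Levels are given in FPKM, read fragments scaled to the length of the gene and the depth of the library, so that they can be set beside each other between genes. In wild-type LSK cells the order of the mean levels ran from Ltb at 156 ± 125 FPKM and Nfkbia at 105 ± 70.1 FPKM through Tnfrsf1a at 52.8 ± 4.26, Rela at 34.4 ± 16.98, Nfkb1 at 26.05 ± 2.45, Ltbr at 22.2 ± 4.13, Tnf at 14.5 ± 8.803 and Tnfrsf1b at 9.42 ± 2.97 FPKM to Tnfaip3 at 2.53 ± 1.53 and Lta at 0.705 ± 0.562 FPKM (SD, n = 3 each). Neighbours in this order overlapped in their ranges, except that Tnfrsf1b lay above Tnfaip3 in all 3 libraries. The ligands and feedback genes had the widest spread for their level, and in each of them wild-type replicate 3 lay far below replicates 1 and 2.

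Ltb, the ligand subunit that holds lymphotoxin at the membrane, measured 281, 157 and 30.6 FPKM across wild-type LSK replicates 1, 2 and 3, and 162, 146 and 37.1 FPKM across the Uhrf1-/- LSK replicates in the same order. The LK library had 0.398 FPKM. Both replicate 3 libraries were low, the LK library was lower still, and the genotypes overlapped. Ltb (Entrez gene 16994) lies on chromosome 17 at positions 35194507 to 35196305 of GRCm38.

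The genes that were low in replicate 3 included Ltb, Tnf and Nfkbia, whose upstream sequences are shown for that reason, from RefSeq (GRCm38.p6), 5′ to 3′ on the strand of the gene. Capitals mark matches to the NF-kB consensus site, searched on both strands over the 250 bases before the annotated start. The Ltb sequence is chr17:35194257-35194438 on the plus strand and ends where a further annotated exon begins, the Nfkbia sequence is chr12:55492648-55492897 on the minus strand and the Tnf sequence is chr17:35202008-35202257 on the minus strand.
Ltb: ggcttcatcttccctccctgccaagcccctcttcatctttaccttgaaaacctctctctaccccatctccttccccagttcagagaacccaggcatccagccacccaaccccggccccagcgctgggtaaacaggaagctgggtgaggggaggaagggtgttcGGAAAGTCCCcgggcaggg
Nfkbia: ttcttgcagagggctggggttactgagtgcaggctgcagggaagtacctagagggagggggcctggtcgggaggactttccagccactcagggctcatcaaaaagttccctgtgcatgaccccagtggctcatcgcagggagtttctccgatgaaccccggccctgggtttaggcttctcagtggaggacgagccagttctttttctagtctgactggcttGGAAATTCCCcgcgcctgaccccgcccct
Tnf: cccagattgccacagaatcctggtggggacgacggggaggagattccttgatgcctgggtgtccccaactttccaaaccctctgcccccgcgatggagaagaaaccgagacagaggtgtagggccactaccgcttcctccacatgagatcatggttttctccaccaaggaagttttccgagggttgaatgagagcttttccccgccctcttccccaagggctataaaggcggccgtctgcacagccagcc
The 10 windows found, 2 of them for Tnfaip3 (1 without a match to either motif), covered 9 of the 10 genes, all but Nfkb1. The NF-kB consensus site was present upstream of 3 of these 9, once in Ltb (87 to 78 bases before the start), once in Nfkbia (29 to 20 bases before the start) and at 2 places in Tnfaip3 (125 to 116 and 12 to 3 bases before the start), and 7.25% of all 32851 windows held a match. The AP-1 site TGANTCA was matched in Tnfaip3 alone (136 to 130 bases before the start, with 6.75% of all windows), and no match of one motif overlapped one of the other. In the Tnfaip3 window with matches, a further annotated exon begins within 248 bases of the start. The NF-kB and AP-1 matches of Tnfaip3 all lie after the point where that exon begins. A match is a description of letters and shows no binding.

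Tnf, the inflammatory cytokine itself (Entrez gene 21926; chromosome 17, 35199367 to 35202007), measured 21.1, 18.0 and 4.52 FPKM across the wild-type libraries and 16.6, 15.01 and 5.08 FPKM across the Uhrf1-/- LSK replicates 1, 2 and 3. The LK library had 0.902 FPKM. The same libraries were low as for Ltb. Lta (Entrez gene 16992; chromosome 17, 35203165 to 35205578), the soluble ligand of the family, was near the detection limit, at 0.959, 1.10 and 0.0606 FPKM across the wild-type libraries and 0.383, 0.531 and 0.0437 FPKM across the Uhrf1-/- LSK cells. These levels rest on an estimated 19, 31 and 2 reads and 8, 11 and 1 reads, and the LK library had 5 reads (0.187 FPKM). Lta too was lowest in the replicate 3 libraries, but its read numbers there are too small to size the difference.

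Among the feedback genes, Nfkbia (Entrez gene 18035; chromosome 12, 55489409 to 55492647) measured 179, 96.3 and 39.3 FPKM across the wild-type libraries and 137, 126 and 60.8 FPKM across the Uhrf1-/- LSK replicates 1, 2 and 3, with 24.3 FPKM in LK cells. Tnfaip3 (Entrez gene 21929; chromosome 10, 19000910 to 19015410) was far lower, at 2.80, 3.91 and 0.885 FPKM across the wild-type libraries and 2.09, 2.32 and 0.641 FPKM across the Uhrf1-/- LSK cells, with 0.127 FPKM in LK cells. Both genes were lowest among LSK libraries in the 2 replicate 3 libraries and lower again in the LK library, and neither separated the genotypes.

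The receptors moved much less. Ltbr (Entrez gene 17000; chromosome 6, 125306571 to 125313885) measured 19.98, 27.0 and 19.8 FPKM across the wild-type libraries and 27.2, 28.4 and 24.7 FPKM across the Uhrf1-/- LSK cells. Tnfrsf1a (Entrez gene 21937; chromosome 6, 125349723 to 125362483), the receptor with a death domain, measured 55.7, 54.8 and 47.9 FPKM and at 48.4, 42.7 and 35.3 FPKM. Tnfrsf1b (Entrez gene 21938; chromosome 4, 145212368 to 145246870), the second TNF receptor of blood cells, measured 8.24, 12.8 and 7.22 FPKM and at 5.40, 6.04 and 6.10 FPKM. Within each genotype replicate 3 was the lowest for Ltbr and Tnfrsf1a, but for none of the 3 receptors were both replicate 3 libraries below all 4 other LSK libraries of both genotypes. Tnfrsf1b was the one gene of the set whose genotypes did not overlap, with Uhrf1-/- lower. That is 1 of the 9 tested genes, near the 10.8% of all tested genes without overlap in either direction. The LK library was below every LSK library for all 3, at 11.9, 22.0 and 3.74 FPKM.

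Of the NF-kB subunit genes Nfkb1 was level, while the highest LSK library exceeded the lowest by a ratio of 2.29 for Rela. Nfkb1 (Entrez gene 18033; chromosome 3, 135584655 to 135691969), which encodes a subunit precursor that is itself an NF-kB target, had the narrowest range of the set, at 28.9, 24.7 and 24.6 FPKM across the wild-type libraries and 27.1, 27.2 and 26.9 FPKM across the Uhrf1-/- LSK cells, with 16.8 FPKM in LK cells. Rela (Entrez gene 19697; chromosome 19, 5637442 to 5648134), the main activating subunit, measured 23.6, 54.0 and 25.7 FPKM across the wild-type libraries, 26.9, 29.0 and 33.2 FPKM across the Uhrf1-/- LSK and 32.8 FPKM in LK cells. The high value was wild-type replicate 2, and the other 6 libraries lay between 23.6 and 33.2 FPKM.

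**Figure D1:**
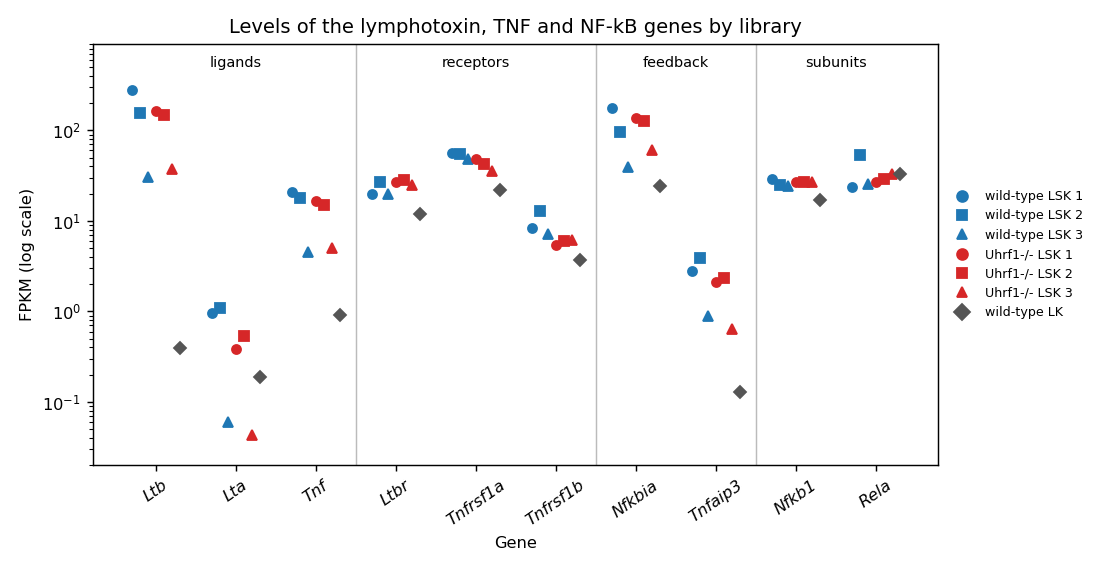
FPKM (log axis) of each gene in each of the 7 libraries, with 1 symbol per library, colours for genotype and cell fraction, and circles, squares and triangles for replicates 1, 2 and 3. The replicate 3 triangles lie below the other LSK symbols for the 3 ligands and the 2 feedback genes, and the LK library lies below all LSK libraries for 8 of the 10 genes.

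The design sets Uhrf1-/- against wild-type LSK cells. Uhrf1 itself lay between 8.78 and 18.6 FPKM in Uhrf1-/- and between 63.0 and 113 FPKM in wild-type LSK libraries, so that the labels and the level of the named gene went together. Of the 9 genes that reached the mean of 1 FPKM needed for the test, 0 passed with limma at an adjusted p of 0.05, and 0 had an unadjusted p under 0.05. With the replicate number as a block, which compares the libraries of the same number, 0 passed and 1, Tnfrsf1b, had an unadjusted p under 0.05. Among all 10608 tested genes, 591 without the block and 1278 with it had an unadjusted limma p under 0.05. Over all 10608 tested genes 0.170% were called without the block (0.113% higher and 0.0566% lower in Uhrf1-/- cells) and 2.06% with it (1.23% higher and 0.830% lower), so that a count of 0 among 9 is near what the background gives. The median log2 difference (Uhrf1-/- minus wild-type, on log2(FPKM + 1)) was -0.14 over the 9 genes and -0.03 over all tested genes. The set was chosen with earlier results of these libraries known, and its values describe these libraries.

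Ltb had a log2 difference of -0.21 (SE 0.94, limma adjusted p = 0.983), lower in Uhrf1-/- cells in 2 of 3 replicate numbers. The ratio of Uhrf1-/- to wild-type FPKM was 0.577, 0.929 and 1.21 in replicates 1, 2 and 3. Tnf had a log2 difference of -0.14 (SE 0.61, adjusted p = 0.980), with ratios of 0.787, 0.835 and 1.12. The differences of both ligands were smaller than their standard errors, and the SEs fell to 0.28 for Ltb and 0.24 for Tnf with the block (adjusted p = 0.806 and 0.851). Leaving out wild-type replicate 3 gave -1.12 for Ltb and -0.77 for Tnf, and leaving out Uhrf1-/- replicate 3 gave 0.47 and 0.34. The sign also turned without wild-type replicate 1 (0.46 for Ltb and 0.23 for Tnf) and without wild-type replicate 2 (0.04 and 0.12).

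Nfkbia had a log2 difference of 0.21 (SE 0.54, adjusted p = 0.970), and the ratio of Uhrf1-/- to wild-type FPKM was 0.764, 1.31 and 1.55 in replicates 1, 2 and 3. Without wild-type replicate 3 it was -0.37, without Uhrf1-/- replicate 1 it was -0.0063, and without wild-type replicate 1 it was 0.71. Tnfaip3 had a log2 difference of -0.35 (SE 0.40, adjusted p = 0.943), lower in Uhrf1-/- cells in 3 of 3 replicate numbers with ratios of 0.746, 0.592 and 0.724. The Tnfaip3 difference depended on single libraries, at -0.75 without wild-type replicate 3, -0.54 without Uhrf1-/- replicate 2, -0.06 without wild-type replicate 2 and -0.03 without Uhrf1-/- replicate 3. The 2 feedback genes thus had differences of opposite sign, neither beyond the spread between libraries.

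Among the receptors, Tnfrsf1b had means of 9.42 ± 2.97 (wild-type) and 5.84 ± 0.387 FPKM (Uhrf1-/-; SD, n = 3 each; log2 difference -0.57, SE 0.28, limma adjusted p = 0.942, blocked adjusted p = 0.354). It was lower in Uhrf1-/- cells in 3 of 3 replicate numbers, and 6.16% of all tested genes likewise had every Uhrf1-/- library below every wild-type library, with 4.61% the other way and 10.8% in all. Its log2 difference was the largest of the 9 tested genes with all 6 libraries in. It was -0.35 without wild-type replicate 2, and without wild-type replicate 3 it was -0.72, where those of Ltb, Tnf and Tnfaip3 were larger. Lta, which was not tested, had means of 0.705 ± 0.562 and 0.319 ± 0.250 FPKM (SD, n = 3 each), a wider ratio than that of Tnfrsf1b. Tnfrsf1a was 52.8 ± 4.26 and 42.1 ± 6.57 FPKM, also lower in 3 of 3 (log2 difference -0.33, SE 0.25, adjusted p = 0.942). Ltbr was 22.2 ± 4.13 and 26.8 ± 1.88 FPKM, higher in 3 of 3 (log2 difference 0.27, SE 0.25, adjusted p = 0.942). Nfkb1 and Rela had log2 differences of 0.06 (SE 0.24) and -0.11 (SE 0.33), and the value for Rela was 0.25 without wild-type replicate 2.

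**Figure D2:**
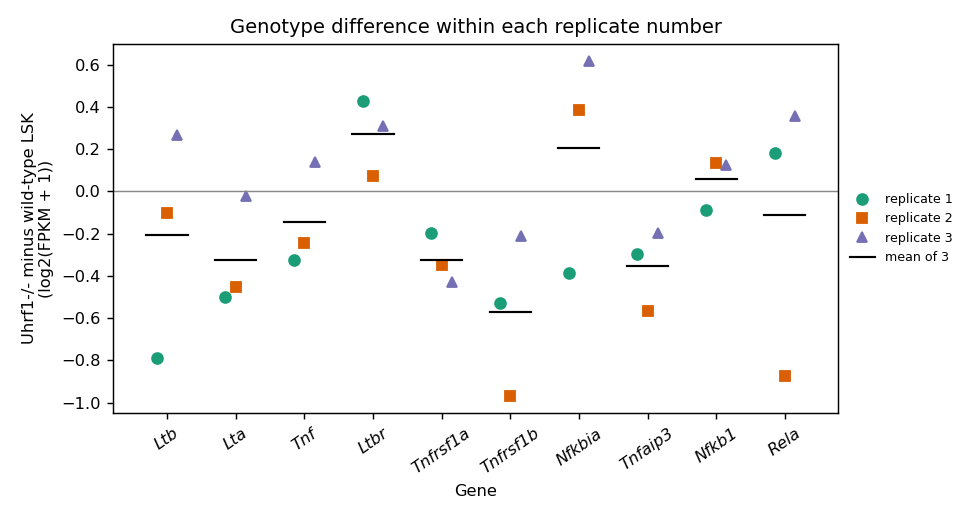
Difference between the Uhrf1-/- and the wild-type LSK library of the same replicate number on log2(FPKM + 1) for each gene, with symbols for replicates 1, 2 and 3 and a bar for their mean. The points of Ltb, Tnf, Nfkbia, Nfkb1 and Rela lie on both sides of 0, those of Ltbr above it, and those of Lta, Tnfrsf1a, Tnfrsf1b and Tnfaip3 below it.

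Replicate 3 set the ligands and feedback genes apart from the receptors and subunits in both genotypes. In 5 of the 10 genes, Ltb, Lta, Tnf, Nfkbia and Tnfaip3, both replicate 3 libraries lay below all 4 LSK libraries of replicates 1 and 2. This held for 4 of the 9 tested genes and for 16.0% of all tested genes, while 0 of the 10 and 16.2% of all tested genes had both replicate 3 libraries above the others. These were all 3 ligands and both feedback genes, and 0 of the 3 receptors and 0 of the 2 subunit genes. The labels number the libraries without saying what a number shares, and the division was known from earlier results, so the values are described and not tested.

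The mean of replicates 1 and 2 exceeded replicate 3 by a ratio of 7.16 in wild-type and 4.16 in Uhrf1-/- cells for Ltb. The ratios were 4.32 and 3.11 for Tnf. For Nfkbia they were 3.50 and 2.16, and for Tnfaip3 3.79 and 3.44. The receptors had ratios of 1.15 to 1.46 in wild-type and 0.938 to 1.29 in Uhrf1-/- cells. On log2(FPKM + 1) the Ltb difference of replicate 3 from the mean of replicates 1 and 2 was -2.74 in wild-type and -2.03 in Uhrf1-/- cells, against medians over all tested genes of -0.03 and -0.05. Each of the 4 tested genes had the larger difference in wild-type cells, a contrast of 2 single libraries that was not tested.

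Immediate-early genes, a class induced rapidly when cells are stimulated or handled, moved with this division. Of 17 tested, 17 had both replicate 3 libraries below all 4 others, with a median log2 difference of -3.92 in wild-type and -2.65 in Uhrf1-/- cells. Junb, a subunit of AP-1, stood between 188 and 250 FPKM in replicates 1 and 2 and at 5.31 and 22.4 FPKM in replicate 3. Fos, the gene of its dimer partner, stood between 150.2 and 278 FPKM and at 2.09 and 13.96 FPKM. Macrophage markers moved as well. The 9 markers found summed to between 50.1 and 159 FPKM in replicates 1 and 2 and to 15.3 and 14.2 FPKM in replicate 3, 7 of the 9 were below all 4 other libraries in both replicate 3 libraries, and Marco, Vsig4 and Timd4 were listed at 0 in both. Of the other marker lists, both replicate 3 libraries were below all 4 others for 1 of 6 hepatoblast markers (Dlk1), 2 of 7 endothelial, 1 of 10 T cell and innate lymphoid, 0 of 8 B cell and 0 of 6 dendritic cell markers. These counts include markers under the mean of 1 FPKM. Among markers that reached it, this held for 3 of 4 macrophage and 1 of 4 hepatoblast markers. It held for 0 of 4 endothelial and 0 of 4 T cell and innate lymphoid markers, against 16.0% of all tested genes. The part of handling and of macrophage or other RNA in the levels of the 5 genes was not tested. In bulk samples, fewer cells of a type and less RNA per cell cannot be told apart.

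**Figure D3:**
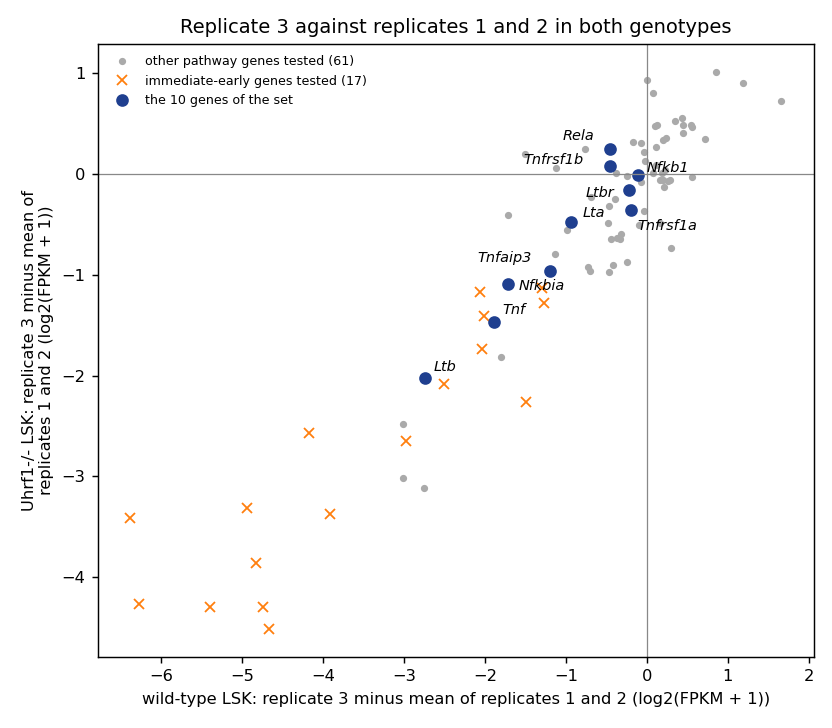
Replicate 3 minus the mean of replicates 1 and 2 on log2(FPKM + 1), in wild-type LSK cells (horizontal axis) and Uhrf1-/- LSK cells (vertical axis), for the 10 genes (filled circles), the tested immediate-early genes (crosses) and the other tested genes of the pathway lists (grey points). Ltb, Tnf, Nfkbia and Tnfaip3 lie toward the lower left, where most immediate-early genes reach further, and the receptors and NF-kB subunits lie near 0.

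Between the fractions, the LK library was below all 6 LSK libraries for 8 of the 10 genes, the exceptions being Lta and Rela. Among the 9 tested genes it was 8, and over all tested genes 25.7% were lowest and 28.2% highest in the LK library, which was highest for 0 of the 10. Ltb had the widest gap, with 6 estimated reads in the LK library against 383 to 2790 in the LSK libraries, and the lowest LSK library exceeded the LK library by a ratio of 76.8. That ratio was 5.01 for Tnf, 5.03 for Tnfaip3 and 1.61 for Nfkbia. The receptors had ratios of 1.44 to 1.66 and Nfkb1 1.46. There was 1 LK library, so these differences have no replicate check, and its Junb level of 8.09 FPKM was near that of the replicate 3 LSK libraries. For the 8 genes, lying below all 6 LSK libraries includes lying below those of replicate 3. The part of handling in the LK levels was not tested. The sort markers went with the gates, as Kit was 30.5 FPKM in the LK library and 24.4 to 56.6 FPKM in the LSK libraries, and Ly6a, which encodes Sca-1, was 0.321 FPKM and 26.4 to 96.4 FPKM. A list of 8 LSK marker genes summed to 414 to 598 FPKM in wild-type and 278 to 360 FPKM in Uhrf1-/- LSK libraries. Every Uhrf1-/- library was below every wild-type library for 3 of the 8 (6.16% of all tested genes) and above for 1 (4.61%). The bearing of this on the genotype differences of the 10 genes was not tested.

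Within a library the ligand genes did not stay in proportion. Ltb exceeded Tnf by a ratio of 13.3, 8.75 and 6.78 in wild-type and 9.78, 9.73 and 7.30 in Uhrf1-/- LSK replicates 1, 2 and 3, while in LK cells the ratio was 0.442. The LK ratio rests on an estimated 6 reads of Ltb and 30 of Tnf. The FPKM of Ltb was 1.57, 1.63 and 0.780 times that of Nfkbia in wild-type and 1.19, 1.16 and 0.610 times in Uhrf1-/- LSK cells. In both genotypes Ltb was thus above Nfkbia in replicates 1 and 2 and below it in replicate 3. The ratio of Ltb to Ltbr, its receptor, was 14.1, 5.82 and 1.55 in wild-type and 5.96, 5.14 and 1.498 in Uhrf1-/- cells.

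The 3 ligand genes lie side by side in the major histocompatibility region, within 11.1 kb from the start of Ltb to the end of Lta, with 3.06 kb between Ltb and Tnf and 1.16 kb between Tnf and Lta. Within 50 kb of this span the annotation holds 7 further protein-coding genes, all of them in the table. Nfkbil1, an inhibitor-like protein gene beside Lta, measured 31.2, 19.6 and 8.14 FPKM across the wild-type libraries, 46.9, 32.9 and 14.3 FPKM across the Uhrf1-/- LSK and 3.54 FPKM in LK cells, and was low in the same libraries. It overlaps Atp6v1g2, and the counting could divide reads between them in ways not known here. Aif1, a gene of macrophages, measured 10.1, 3.83 and 0.236 FPKM across the wild-type libraries and 1.45, 2.28 and 0.554 FPKM across the Uhrf1-/- LSK cells. Ddx39b, an RNA helicase gene on the far side, was between 255 and 347 FPKM in all 7 libraries. Low levels in replicate 3 were thus present in some neighbours and not in others, and 0 of the 7 neighbours passed the genotype test in either limma fit.

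**Figure D4:**
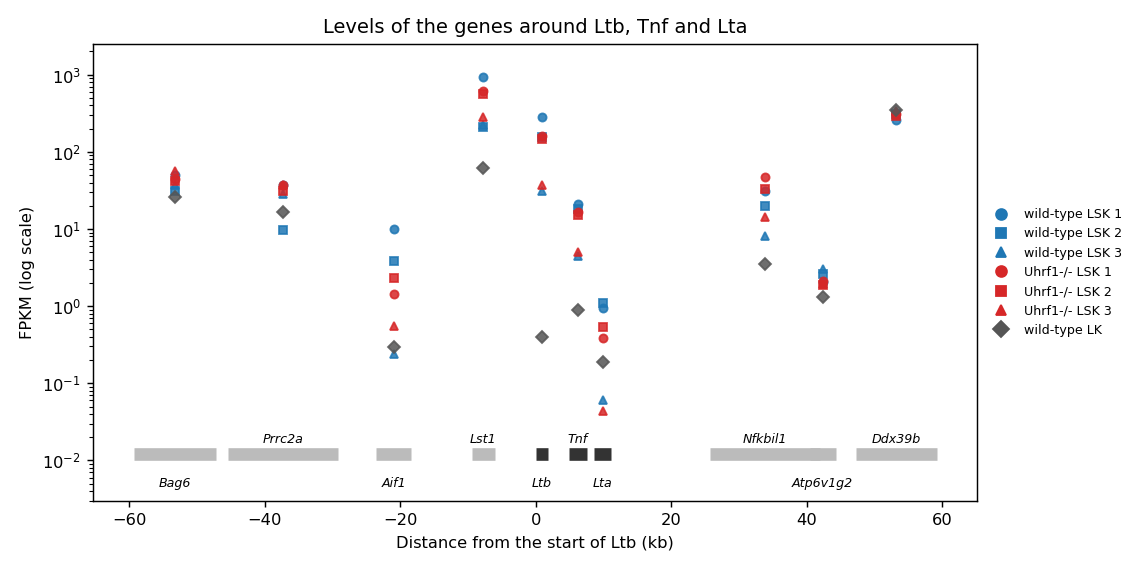
FPKM (log axis) in each of the 7 libraries for the 10 protein-coding genes within 50 kb of Ltb, Tnf and Lta, placed by distance in kb from the start of Ltb, with gene spans drawn as bars (dark for the ligand genes). The triangles of replicate 3 fall below the other LSK symbols at Aif1, Ltb, Tnf, Lta and Nfkbil1, while Ddx39b stays between 255 and 347 FPKM.

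The genes whose pattern over the 7 libraries was most like that of Ltb on log2(FPKM + 1), out of 7335 genes whose mean reached 5 FPKM, were Zfp821, Serpinf1 and Ulk1 (Pearson r = 0.994, 0.994 and 0.993). For Tnf they were Pnrc1, Orai1 and Dusp2 (r = 0.998, 0.997 and 0.996), and for Nfkbia H2-Ke6, Abhd17a and Ier5l (r = 0.995, 0.994 and 0.992). Dusp2, a phosphatase gene induced in activated blood cells, measured 305, 269 and 34.4 FPKM across the wild-type libraries, 215, 220.3 and 37.3 FPKM across the Uhrf1-/- LSK and 8.002 FPKM in LK cells. These values of r are descriptions over 7 libraries that fall into clusters, with replicates 1 and 2 high, replicate 3 lower and LK lowest.

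The other genes of the pathway were taken from listed groups, of which 78 genes reached the mean of 1 FPKM. Without the block 0 of the 78 passed with limma, with 4 at an unadjusted p under 0.05, and with the block 0 were higher and 2 lower in Uhrf1-/- cells, with 19 at an unadjusted p under 0.05. Among all 10608 tested genes, 591 without the block and 1278 with it had an unadjusted limma p under 0.05. The blocked count of 19 of 78 was thus a larger share than that of all tested genes. Over all tested genes the blocked fit called 2.06%, with 0.830% lower, so that 2 of 78 is near the background. The 2 were Ccl3 and Tnfrsf13c. The median log2 difference over the 78 genes was -0.10.

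Ccl3, a chemokine gene and NF-kB target, measured 67.4, 63.9 and 7.28 FPKM across the wild-type libraries and 12.8, 15.8 and 0.889 FPKM across the Uhrf1-/- LSK replicates 1, 2 and 3. It was lower in Uhrf1-/- cells in 3 of 3 replicate numbers and low in both replicate 3 libraries (log2 difference -2.13, blocked SE 0.24, blocked adjusted p = 4.86e-05, adjusted p = 0.942 without the block). It also passed in the blocked fits without pair 1, 2 or 3 (adjusted p from 2.15e-08 to 0.036). The 9 macrophage markers found summed to 159, 87.5 and 15.3 FPKM in the wild-type and 51.2, 50.1 and 14.2 FPKM in the Uhrf1-/- libraries, and their part in the Ccl3 level was not tested. Tnfrsf13c, a receptor gene of B cells, measured 4.70, 6.00 and 4.32 FPKM across the wild-type libraries and 2.98, 2.39 and 1.01 FPKM across the Uhrf1-/- cells (log2 difference -0.99, blocked adjusted p = 0.037, adjusted p = 0.425 without the block). Tnfrsf13c did not pass with the block when the deposited count values were fitted (adjusted p = 0.068) or without pair 2 (0.392) or pair 3 (0.476).

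By list, 7 further NF-kB subunit and inhibitor genes were tested and 0 passed in either fit, with 0 and 2 at an unadjusted limma p under 0.05 without and with the block. The median log2 difference was 0.22, and 5 of 7 were positive. Bcl3, an atypical inhibitor protein that can act as a coactivator, was 10.9 ± 2.30 and 16.5 ± 2.71 FPKM (SD, n = 3 each; log2 difference 0.57, adjusted p = 0.928) and higher in Uhrf1-/- cells in 3 of 3 replicate numbers. Nfkbiz, a nuclear inhibitor-family protein, was 4.80 ± 2.29 and 2.68 ± 1.16 FPKM (log2 difference -0.62, adjusted p = 0.942). Both replicate 3 libraries were below all 4 others for 3 of the 7, Relb, Nfkbid and Nfkbiz, and above them for 0 (16.0% and 16.2% of all tested genes). Relb, a subunit of the pathway that lymphotoxin receptors use, was chosen for mention after its values were seen and measured 4.37, 4.34 and 0.628 FPKM across the wild-type libraries, 4.405, 4.29 and 3.03 FPKM across the Uhrf1-/- LSK and 0.0308 FPKM in LK cells. The low wild-type value was not matched in Uhrf1-/- replicate 3.

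Of 18 tested kinase and adaptor genes, 0 passed in either fit, with 0 and 1 at an unadjusted limma p under 0.05 without and with the block, and both replicate 3 libraries were below all 4 others for 1 of 18 and above them for 4 (Tab1, Tab2, Traf3 and Map3k14). Birc3, a ubiquitin ligase of the TNF receptor complex, was 5.83 ± 2.76 and 3.15 ± 0.991 FPKM and lower in 3 of 3 replicate numbers (log2 difference -0.68, adjusted p = 0.942, blocked adjusted p = 0.249). Rbck1, a part of the linear ubiquitin ligase, was 68.1 ± 10.2 and 89.4 ± 0.892 FPKM and higher in 3 of 3 (log2 difference 0.40, adjusted p = 0.942). Of 12 tested negative regulators, 0 passed, with 1 at an unadjusted limma p under 0.05 in each fit. In this list both replicate 3 libraries were below all 4 others for 1 of 12 and above them for 6, against 16.0% and 16.2% of all tested genes. The 6 were N4bp1, Tax1bp1, Cyld, Tnip2, Rc3h1 and Pdcd4. The gene at an unadjusted p under 0.05 was Tnip3, a partner of the Tnfaip3 product, at 1.81 ± 0.476 and 0.872 ± 0.131 FPKM (log2 difference -0.58, adjusted p = 0.813, blocked adjusted p = 0.298).

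Of 15 NF-kB target genes tested, both replicate 3 libraries were below all 4 others for 7 and above them for 1, Ccnd1 (16.0% and 16.2% of all tested genes). Among the 7, Ier3 is also on the immediate-early list. Without the block 0 of the 15 were called, with 1 at an unadjusted limma p under 0.05. With it 1, Ccl3, was called, with 4 at an unadjusted limma p under 0.05. Ccl4, a chemokine gene, measured 269, 140.0 and 27.8 FPKM across the wild-type libraries, 98.9, 113 and 11.3 FPKM across the Uhrf1-/- LSK and 2.88 FPKM in LK cells (blocked adjusted p = 0.071). The other tested chemokine genes of the list were chosen for mention after their values were seen. Cxcl2 measured 6.26, 8.05 and 0 FPKM across the wild-type and 4.23, 4.98 and 0 FPKM across the Uhrf1-/- LSK libraries (log2 difference -0.36, limma adjusted p = 0.976, blocked adjusted p = 0.583). Ccl5 and Cxcl10 had differences of the opposite sign. Ccl5, the gene with the unadjusted p under 0.05 without the block, measured 3.46, 1.002 and 1.996 FPKM across the wild-type and 3.74, 5.23 and 9.33 FPKM across the Uhrf1-/- LSK libraries, which did not overlap (log2 difference 1.17, limma adjusted p = 0.473, blocked adjusted p = 0.081). Cxcl10 measured 4.84, 4.37 and 0.609 FPKM and 8.27, 10.8 and 1.97 FPKM, higher in Uhrf1-/- cells in 3 of 3 replicate numbers (log2 difference 0.90, limma adjusted p = 0.942, blocked adjusted p = 0.054). Myc, a growth regulator gene and the most abundant of the list, did not follow this division, with 117, 150.2 and 163 FPKM across the wild-type libraries and 162, 164 and 97.8 FPKM across the Uhrf1-/- LSK cells.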

How the data were processed

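RNA sequencing measured gene levels in 7 libraries, 3 wild-type LSK, 3 Uhrf1-/- LSK and 1 wild-type LK, grouped by their titles. Per the submitters' processing notes, TopHat2 2.0.9, Cufflinks 2.1.1 and mm10 were used, in roles not spelled out. The sources used here do not give the annotation, the strand setting or how reads were counted. The authors deposited FPKM, used for the tests, and a second value that is a count per the file headers. This deposited count signal is not whole. Each library has a step, and between 98.2% and 98.6% of its low values (under 100 steps) are whole multiples of it to within 0.02 steps, and estimated reads are values divided by that step, so no count model was run and the FPKM branch of the design was followed. Count values summed to 15556959 to 21017402 per library, an estimated 16808494 to 25802945 reads. A scaling of FPKM by library content means that a few abundant genes lower the rest. FPKM summed to 570509 in wild-type LSK replicate 2, against 851271 to 1.13e+06 in the other libraries.

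The genotype test was limma 3.58.1 under R 4.3.3 (trend and robust moderation) on log2(FPKM + 1), over genes whose mean reached 1 FPKM in the 6 LSK libraries, two-sided, with Benjamini-Hochberg adjustment over all 10608 genes and a threshold of 0.05. Fold changes on this scale understate the change of low genes. Adjusted p-values come from the fit without the replicate number unless blocked is written. Same-numbered libraries deviated together from their groups (r = 0.349, 0.332 and 0.645), all above 0.1, and no library had a higher r with another number, so the numbers were read as pairs, from the data and not from the labels. Libraries of other numbers had r from -0.591 to 0.213, above 0.1 for wild-type 1 with Uhrf1-/- 2 (0.159) and wild-type 2 with Uhrf1-/- 1 (0.213). The labels do not say that libraries came from separate animals, so p-values may reflect technical spread, and no library was identical to another. The fit was tested on simulated data.

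The 10 genes and the lists were chosen with earlier results of these data known. Named genes are all 10, pathway list members called in either fit, otherwise the 2 of largest difference or those of highest level, genes within 50 kb of the ligand genes, and the 3 most alike in pattern. Adgre1 and Otulin had no row under those symbols. Besides the lists described, B cell, T cell and innate lymphoid, dendritic cell, endothelial and hepatoblast markers were measured. Coordinates and promoters are from RefSeq GRCm38.p6, matched by gene ID or symbol. Exons used to end a printed promoter are from GENCODE. Alternatives covered the block, pseudocount, filter, scaling, count values, moderation, and left-out libraries and pairs.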

Additional observations from a re-analysis of the deposited data

How the results depend on the processing

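None of the genes was called under any setting in which it was tested. Lta was tested only with no filter on low values. Among the log2 genotype differences of the other 9 genes, 155 of 170 alternative values kept the sign and 15 reversed it. Those for Ltbr, Tnfrsf1a, Tnfrsf1b and Tnfaip3 kept their sign in every alternative run, with sizes of 0.20 to 0.41, -0.43 to -0.21, -0.72 to -0.35 and -0.75 to -0.03 with 1 library left out. Leaving out 1 library gave -1.12 to 0.47 for Ltb, -0.77 to 0.34 for Tnf, -0.37 to 0.71 for Nfkbia and -0.33 to 0.25 for Rela. Nfkb1 was -0.0213 on the count values with or without the replicate block. In the blocked fits without a pair, Ltb was 0.0816 without pair 1, Rela 0.27 without pair 2 and Nfkbia -0.000599 without pair 3, the same as without the block. The cause of these reversals was not tested.

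Over all genes limma called 18. With the replicate block it called 219, on the count values with the block 209, and with the block 667 without pair 1, 20 without pair 2 and 196 without pair 3. It called 9 without trend and robust moderation, 0 with no filter on low values (967 at an unadjusted p under 0.05), 0 to 4 with 1 library left out and 0 without pair 3 and without the block (482 at an unadjusted p under 0.05), a setting chosen after seeing the data. Settings that leave out libraries use fewer samples. Of the pathway lists limma called 0 genes, 2 with the replicate block, 3 with the block on the count values, and with the block 9 without pair 1, 1 without pair 2 and 2 without pair 3. The block changed no call among the 9 tested genes. The count of genes low in replicate 3 stayed at 5 under median-of-ratios scaling and on the count values, and was 5 to 7 with 1 library left out. The count below all LSK libraries in LK cells stayed at 8 in each of these. Depth limits Lta, with 1 to 31 estimated reads per library.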

Other observations

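Outside the 10 genes, several other TNF family genes were present in LSK cells. Of 15 further ligand genes only 3 reached a mean of 1 FPKM. Among these 0 passed in either fit, with 0 and 2 at an unadjusted limma p under 0.05 without and with the block. Tnfsf14, which encodes a second ligand of the lymphotoxin beta receptor, measured 4.70, 1.996 and 12.04 FPKM across the wild-type libraries and 8.42, 7.89 and 14.1 FPKM across the Uhrf1-/- LSK replicates 1, 2 and 3, with 3.84 FPKM in LK cells. It was highest in replicate 3 of each genotype, the opposite of Ltb, and higher in Uhrf1-/- cells in 3 of 3 replicate numbers (log2 difference 0.84, limma adjusted p = 0.942, blocked adjusted p = 0.149). Tnfsf9, the ligand of a lymphocyte costimulatory receptor, was 4.57 ± 0.881 and 7.39 ± 2.34 FPKM (SD, n = 3 each), also higher in 3 of 3 (log2 difference 0.57, adjusted p = 0.942, blocked adjusted p = 0.337).

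Of 20 further receptor genes 7 reached that mean. Among these 0 passed without the block and 1, Tnfrsf13c, with it, with 2 and 4 at an unadjusted limma p under 0.05. Cd27, a costimulatory receptor also found on progenitors, was the most abundant, at 106, 91.9 and 111 FPKM across the wild-type libraries and 72.7, 69.6 and 68.0 FPKM across the Uhrf1-/- LSK cells, with 17.7 FPKM in LK cells. The genotypes did not overlap, but the difference did not pass (log2 difference -0.54, limma adjusted p = 0.928, blocked adjusted p = 0.406). Tnfrsf18, a receptor gene of regulatory lymphocytes, measured 17.9, 10.2 and 5.70 FPKM across the wild-type libraries and 16.1, 18.1 and 17.8 FPKM across the Uhrf1-/- LSK cells, and at 0.893 FPKM in LK cells. Tnfrsf12a, chosen after its values were seen, measured 3.47, 2.47 and 1.44 FPKM across the wild-type and 5.47, 4.32 and 4.01 FPKM across the Uhrf1-/- libraries, which did not overlap (log2 difference 0.73, limma adjusted p = 0.771, blocked adjusted p = 0.151). For Tnfrsf18 the low wild-type replicate 3 value was not matched in Uhrf1-/- replicate 3 (log2 difference 0.70, adjusted p = 0.942, blocked adjusted p = 0.317).

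B cell markers summed to 59.4 to 119 FPKM in LSK libraries, with Cd79b the main part and Ms4a1 at or near 0. T cell and innate lymphoid markers summed to 63.7 to 122 FPKM and Cd3e was listed at 0 in all LSK libraries. Il7r, of the same list, was lower in Uhrf1-/- cells with the block, at 2.29, 1.43 and 4.56 FPKM across the wild-type and 0.281, 0.371 and 0.0679 FPKM across the Uhrf1-/- libraries (log2 difference -1.52, limma blocked adjusted p = 0.00459, adjusted p = 0.104 without it). Dendritic cell markers, led by Flt3, which LSK cells also express, summed to 51.8 to 103 FPKM in wild-type and 11.1 to 29.4 FPKM in Uhrf1-/- LSK libraries. Flt3 itself was lower in Uhrf1-/- cells with the block (log2 difference -1.73, limma blocked adjusted p = 0.000442, adjusted p = 0.175 without it). Endothelial markers summed to 27.6 to 42.8 FPKM and hepatoblast markers to 46.0 to 92.5 FPKM, led by Krt18 and Dlk1, of which Dlk1 measured 38.0, 33.7 and 5.14 FPKM across the wild-type libraries and 49.7, 44.1 and 7.56 FPKM across the Uhrf1-/- libraries.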
